A study of Mus musculus with 16 samples.

Results

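The comparison described here is that of G1E-ER4 cells given 50 nM beta-estradiol with the same cells given none. It uses 4 of the 16 libraries of a dose series: 2 replicates at 50 nM and 2 at 0 nM, chosen by their labelled dose alone. All 23410 gene symbols of the count table were considered, and 10080 of them held enough counts to be tested. G1E-ER4 is an established clonal mouse erythroid line. It was derived from cells without a working Gata1 gene and was given a fusion of GATA1 with the hormone-binding domain of an estrogen receptor. The control cells have both the loss and the fusion too. All groups grew in IMDM with 15% fetal bovine serum, stem cell factor at 50 ng/ml and erythropoietin at 2 U/ml. The series also holds cells at 12.5, 25, 75, 100, 150 and 200 nM. Libraries were made with Smart-seq2, a method for whole polyadenylated transcripts that keeps no strand and counts reads rather than molecules. The labels do not say how long the cells were exposed, nor whether the replicates came from separate cultures, so the p-values measure only the spread between these samples.

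GATA1 is the transcription factor that drives red cell maturation. Without ligand the fusion protein is held outside the nucleus, and beta-estradiol lets it in, where it binds GATA sites together with FOG1, TAL1, LMO2 and LDB1. It is known for turning on globin, heme and red cell membrane genes and for taking over from GATA2, which is active in progenitors, and so turning down genes such as Gata2, Kit and Myc. The labels give a graded dose of beta-estradiol, and the activity of the fusion at each dose was not measured in these data.

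Promoter sequences of the strongest responders are shown so that their GATA words can be read beside their values. They are the RefSeq windows (GRCm38.p6, 250 bases before to 50 after a start site, in the direction of the gene) of the 3 most raised and the 3 most lowered named genes that have an entry. Capitals mark a GATA word on either strand: AGATAA or AGATAG, and equally TGATAA or TGATAG. The letters TTATCT are the first of these read on the other strand.
Tmem184a, raised, chr5:139814234-139814533, minus strand, the first listed of its 2 windows: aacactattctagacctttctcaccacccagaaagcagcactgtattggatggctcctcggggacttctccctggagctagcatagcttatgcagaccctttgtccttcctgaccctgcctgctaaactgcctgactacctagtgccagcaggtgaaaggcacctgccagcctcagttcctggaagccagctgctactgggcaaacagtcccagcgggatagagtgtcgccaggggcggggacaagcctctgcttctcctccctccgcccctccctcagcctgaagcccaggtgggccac
Alas2, raised, chrX:150547167-150547466, plus strand: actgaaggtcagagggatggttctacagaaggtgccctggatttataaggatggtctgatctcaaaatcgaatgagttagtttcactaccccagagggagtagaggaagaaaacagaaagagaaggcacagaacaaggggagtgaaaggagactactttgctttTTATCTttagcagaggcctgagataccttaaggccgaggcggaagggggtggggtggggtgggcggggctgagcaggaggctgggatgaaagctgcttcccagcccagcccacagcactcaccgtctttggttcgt
Btg2, raised, chr1:134079106-134079405, minus strand: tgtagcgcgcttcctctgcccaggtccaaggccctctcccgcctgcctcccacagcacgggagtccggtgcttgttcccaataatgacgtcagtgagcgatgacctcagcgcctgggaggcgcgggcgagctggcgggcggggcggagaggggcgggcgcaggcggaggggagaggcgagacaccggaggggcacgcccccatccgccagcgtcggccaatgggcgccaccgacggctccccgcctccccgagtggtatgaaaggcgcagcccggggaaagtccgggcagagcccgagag
Lgals9, lowered, chr11:78984875-78985174, minus strand: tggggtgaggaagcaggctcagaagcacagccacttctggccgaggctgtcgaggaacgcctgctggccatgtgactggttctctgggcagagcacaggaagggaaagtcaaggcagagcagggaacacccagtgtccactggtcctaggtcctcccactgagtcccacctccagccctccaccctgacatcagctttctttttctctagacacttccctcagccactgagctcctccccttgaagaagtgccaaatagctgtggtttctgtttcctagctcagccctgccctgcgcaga
St8sia4, lowered, chr1:95667545-95667844, minus strand: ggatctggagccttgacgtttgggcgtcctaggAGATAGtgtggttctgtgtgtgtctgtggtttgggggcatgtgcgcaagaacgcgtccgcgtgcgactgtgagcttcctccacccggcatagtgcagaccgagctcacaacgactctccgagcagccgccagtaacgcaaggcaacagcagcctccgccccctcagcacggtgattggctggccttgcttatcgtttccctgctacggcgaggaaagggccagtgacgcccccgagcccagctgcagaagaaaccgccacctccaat
Ces2g, lowered, chr8:104961468-104961767, plus strand: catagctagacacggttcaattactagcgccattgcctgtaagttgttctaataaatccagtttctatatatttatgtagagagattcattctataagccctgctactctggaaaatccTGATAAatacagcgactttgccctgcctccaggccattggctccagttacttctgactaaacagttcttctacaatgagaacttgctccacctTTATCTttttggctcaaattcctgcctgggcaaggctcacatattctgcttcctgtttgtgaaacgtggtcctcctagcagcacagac

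Alas2 held 1 such word and St8sia4 held 1. Ces2g held 2, and the windows of Tmem184a, Btg2 and Lgals9 held none. Over the 6515 tested genes with exactly 1 window, 18.2% had a GATA word, against 19.2% of those raised at 50 nM and 16.8% of those lowered. Among genes raised at least 2-fold it was 50 of 150 (33.3%), and among those lowered at least 2-fold 17 of 82 (20.7%), a split chosen after the values were seen and not tested. The word CCACACCC, read by KLF1, was in 4.02% of all these windows, 3.90% of the raised and 4.12% of the lowered. The E-box CACGTG was in 11.0%, 11.9% and 10.8%. By the same untested 2-fold split, CCACACCC was in 10 of 150 raised (6.67%) and 4 of 82 lowered genes (4.88%). CACGTG was in 14 (9.33%) and 6 (7.32%) of them. A match is a description of the letters and not a site of binding.

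The libraries compared were of like depth, with 14413969 to 14847803 counts at 0 nM and 15121181 to 15265661 at 50 nM, within a range of 9393156 to 15802510 over the series. Globin genes took 0.151% of the counts in each 0 nM library and 0.880% and 0.806% at 50 nM. Rn45s, the ribosomal RNA precursor, took 9.61% and 9.53% against 10.1% and 9.63%. On the first principal component, which held 82.3% of the variance, the 0 nM libraries stood at −54.7 and −55.0, the 50 nM libraries at −23.3 and −21.6 and the 200 nM libraries at 84.1 and 84.5. Differences were tested with edgeR's quasi-likelihood test over all 16 libraries, with p-values adjusted by Benjamini-Hochberg over the 10080 genes, and a gene under 0.05 is said to have risen or fallen. Levels are TMM-scaled CPM, counts as a share of the library, a scale that sets genes of 1 library side by side but not per length, so levels are compared within a gene. A value after ± beside a log2 fold change is its standard error, and such pairs in brackets are log2 fold changes at 50 nM against 0 nM, positive where 50 nM is higher.

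At 50 nM 3377 genes (33.5%) passed the test. Of these 1896 rose (18.8% of the genes tested) and 1481 fell (14.7%). Most changes were small, with a median of 1.28-fold among the raised and 1.27-fold among the lowered. A change of at least 2-fold was reached by 231 raised genes (2.29%) and 133 lowered genes (1.32%). The 2 doses did not overlap in 1893 of the raised and 1478 of the lowered genes, but with 2 libraries against 2 that is common: over all 10080 genes the 50 nM libraries lay above both 0 nM libraries in 3427 and below both in 3144. Scaled by library size alone the balance turned, to 1336 raised and 2330 lowered, or 36.4% raised among the called against 56.1%, so which genes with small changes passed the test depended on the scaling, while no gene was called in the opposite direction. The median over all genes was 0.01 on the log2 scale with TMM and −0.06 by library size. In bulk samples, fewer cells of a type and less RNA per cell cannot be told apart, and this holds for every result below. Counts of raised and lowered members of a gene list are to be read against 18.8% and 14.7%, the shares over all genes. The lists were chosen with earlier results of these data known, so a count above these shares is a description, and no list was tested.

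**Figure D1:**
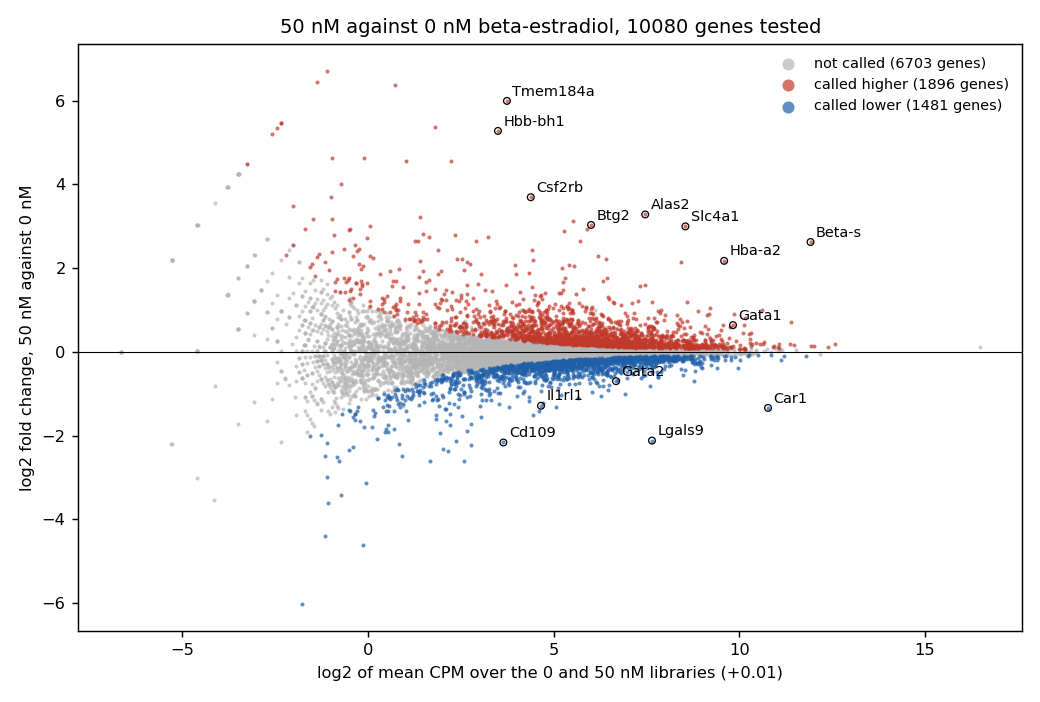
Log2 fold change at 50 nM against 0 nM (vertical) by the log2 of the mean CPM over the 4 libraries (horizontal), with 1 point for each of the 10080 genes tested. The 1896 raised genes are red and the 1481 lowered genes blue. Fold changes at the far left rest on few counts.

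Counts under the symbols Gata1 and Gata2 moved in opposite directions. Gata1 stood at 755 and 667 CPM at 0 nM and 1063 and 1152 CPM at 50 nM, a log2 fold change of 0.64 ± 0.07 (adjusted p = 8.98e-05). Whether reads of the fusion gene are counted under that symbol was not tested. Gata2 fell from 133 and 121 CPM to 68.9 and 87.3 CPM (−0.70 ± 0.09, adjusted p = 2.68e-05), and its 2 libraries at 50 nM lay further apart than those at 0 nM. Among 11 GATA factors and direct partners, 5 rose, Gata1 included, 2 fell and 4 did not pass. Gfi1b, a repressor that works with GATA1, rose from 189 and 186 CPM to 308 and 327 CPM (0.76 ± 0.04). Lyl1, a relative of TAL1, fell from 199.6 and 199.8 CPM to 144 and 147 CPM (−0.46 ± 0.05). The corepressor Cbfa2t3 (0.47 ± 0.06) and Runx1 (0.41 ± 0.07) rose. The list's median was 0.41, and 0.24 without replicate 2 of 0 nM.

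All 5 tested members of the globin list, Hba-a2, Hba-x, Hbb-b1, Hbb-bh1 and Hbb-y, were raised, with a median log2 fold change of 2.94 against 0.01 over all genes. Beta-s, an adult beta globin symbol that is not on the list and not in these counts, went from 1081 and 1074 CPM to 7102 and 6194 CPM (2.63 ± 0.06). Hbb-b1, the other adult beta globin symbol, went from 14.2 and 13.2 CPM to 92.7 and 118 CPM (2.94 ± 0.14). Alpha globin Hba-a2 went from 277 and 281 CPM to 1209.7 and 1313 CPM (2.17 ± 0.03). These adult genes have near-identical copies among which reads may be split, so the values of single copies are uncertain. The 50 nM libraries were several times above the 0 nM libraries in each, and for Beta-s and Hbb-b1 the order of the 2 replicates at 50 nM differed.

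The embryonic globins began from almost nothing. Hbb-bh1 (chromosome 7, 103841637 to 103843164, minus strand) stood at 0.736 and 0.378 CPM at 0 nM and 22.02 and 22.1 CPM at 50 nM (5.28 ± 0.18, adjusted p = 4.90e-24). Hba-x had 0 counts in both 0 nM libraries and 11 and 18 at 50 nM. Against a floor of 3 counts over the 0 nM group that is a ratio of 9.78, with counting error left out. Hbb-y had 0 and 2 counts against 7 and 4, a ratio of 5.56 (95% interval 1.21 to 51.6, for counting error only). The call of Hbb-y was lost without replicate 1 of 0 nM (adjusted p = 0.302) and without replicate 1 of 50 nM (adjusted p = 0.224), and with DESeq2 (adjusted p = 0.0891). The median of the list ran from 2.76 to 4.89 with a library left out, the highest without replicate 2 of 0 nM.

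Heme synthesis and its mitochondrial transport rose in 13 of 14 tested genes, with 1 lower and a median of 0.78. Alas2, the rate-limiting heme enzyme of erythroid cells (chromosome X, 150547375 to 150570638, plus strand), stood at 32.9 and 32.9 CPM at 0 nM and 314 and 327 CPM at 50 nM (3.28 ± 0.04, adjusted p = 5.12e-46). Slc25a37, mitoferrin 1, which brings iron into mitochondria, went from 27.04 and 22.8 CPM to 113 and 130.4 CPM (2.29 ± 0.09). Abcb10, a mitochondrial transporter that partners mitoferrin, went from 126 and 126 CPM to 559 and 563 CPM (2.15 ± 0.03). The change of each was larger than that of the later enzymes Alad and Fech. Alad went from 641 and 646 CPM to 1206 and 1198 CPM (0.90 ± 0.03). Fech, which inserts iron into the ring, went from 684 and 684 CPM to 1010.1 and 1042 CPM (0.58 ± 0.03). Alas1, the housekeeping counterpart of Alas2, was the member that fell, from 10.9 and 12.5 CPM to 10.1 and 7.35 CPM (−0.43 ± 0.16, adjusted p = 0.0314). That call was lost without replicate 2 of 0 nM (adjusted p = 0.253) and without replicate 2 of 50 nM (adjusted p = 0.437).

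Iron handling changed in fewer members, with 7 of 14 higher, 1 lower and a median of 0.14. The transferrin receptor Tfrc went from 1040.3 and 1033 CPM to 2089 and 2028 CPM (0.99 ± 0.03). The ferritin light chain Ftl1 went from 2041 and 2018 CPM to 3295 and 3339 CPM (0.71 ± 0.03), and the endosomal iron reductase Steap3 from 286 and 289.6 CPM to 475 and 486 CPM (0.74 ± 0.03). Tfr2, the other transferrin receptor, fell from 208 and 209.7 CPM to 148 and 139 CPM (−0.54 ± 0.05). The 2 receptors thus moved in opposite directions.

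Genes of the red cell membrane and its skeleton rose in 17 of 19 tested members, with 1 lower and a median of 0.77. Slc4a1, the anion exchanger band 3 (chromosome 11, 102348824 to 102366203, minus strand), stood at 81.3 and 84.99 CPM at 0 nM and 662 and 667 CPM at 50 nM (3.0 ± 0.04, adjusted p = 8.00e-48). Dematin, an actin-bundling protein listed as Epb4.9, went from 9.01 and 9.77 CPM to 80.2 and 84.9 CPM (3.13 ± 0.08). The 2 replicates of each dose lay close together for both genes. Sptb, the beta chain of spectrin, went from 235 and 230.1 CPM to 535 and 531 CPM (1.2 ± 0.03). Tspo2 was the lower member (38.5 and 42.4 CPM and 34.4 and 34.3 CPM, −0.23 ± 0.08), a call lost without replicate 2 of 0 nM (adjusted p = 0.240), replicate 1 of 50 nM (0.0572) or replicate 2 of 50 nM (0.0708).

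**Figure D2:**
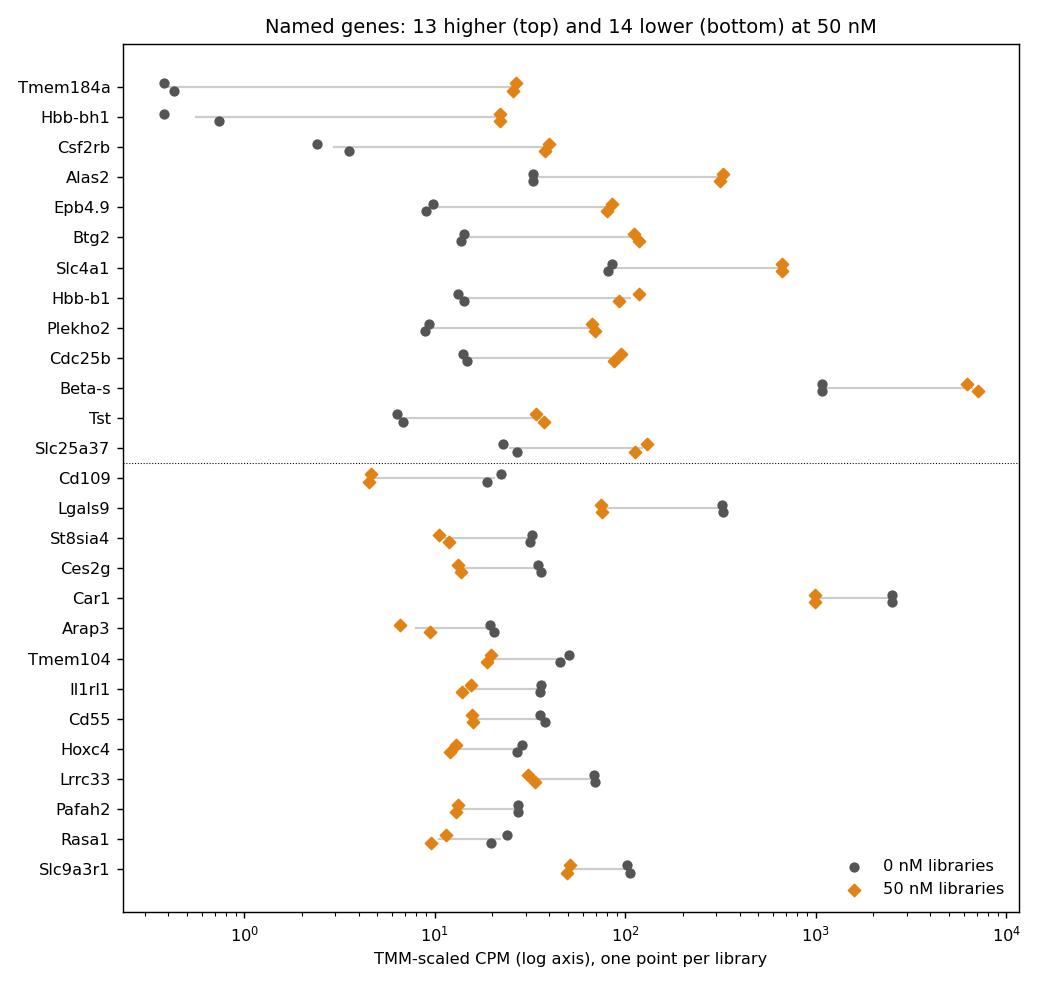
TMM-scaled CPM of 27 named genes in each of the 4 libraries, on a log axis, with circles for 0 nM and diamonds for 50 nM. The 13 raised genes are at the top and the 14 lowered at the bottom. The genes were chosen among those whose doses do not overlap.

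Of the raised genes whose larger mean reached 20 CPM, Tmem184a had the largest fold change. Tmem184a, which encodes a transmembrane protein (chromosome 5, 139802485 to 139819917, minus strand), stood at 0.429 and 0.378 CPM at 0 nM and 25.8 and 26.9 CPM at 50 nM (5.99 ± 0.18, adjusted p = 3.30e-31). Csf2rb, the shared signalling chain of the receptors for interleukin 3, interleukin 5 and GM-CSF, went from 3.56 and 2.40 CPM to 37.8 and 39.6 CPM (3.69 ± 0.11). It has a near-identical neighbour in the mouse, so its reads are uncertain. Btg2, an antiproliferative gene, went from 13.7 and 14.2 CPM to 119 and 111 CPM (3.03 ± 0.06). Plekho2, which has a pleckstrin homology domain, went from 8.89 and 9.33 CPM to 69.2 and 66.5 CPM (2.90 ± 0.08). Cdc25b, a phosphatase that activates mitotic kinases, went from 14.7 and 14.1 CPM to 87.3 and 94.8 CPM (2.66 ± 0.06). Both 50 nM libraries were several times above the controls for each of these genes. Tst, a mitochondrial sulfurtransferase, went from 6.81 and 6.31 CPM to 37.3 and 34.1 CPM (2.44 ± 0.10).

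Of the lowered genes whose larger mean reached 20 CPM, the 14 that fell furthest follow. Cd109, a surface protein anchored by a lipid, went from 18.7 and 22.2 CPM to 4.51 and 4.61 CPM (−2.16 ± 0.18, adjusted p = 3.56e-12). Lgals9, the secreted lectin galectin 9 (chromosome 11, 78962974 to 78984946, minus strand), went from 327 and 324 CPM to 75.9 and 74.2 CPM (−2.12 ± 0.05, adjusted p = 7.33e-36). Its 4 libraries split into 2 tight pairs. Car1, a carbonic anhydrase of red cells and their precursors, went from 2498 and 2514 CPM to 996 and 987 CPM (−1.34 ± 0.03). The polysialyltransferase St8sia4 went from 31.5 and 32.5 CPM to 11.9 and 10.5 CPM (−1.51 ± 0.11). The carboxylesterase Ces2g went from 36.2 and 34.8 CPM to 13.7 and 13.2 CPM (−1.40 ± 0.10). Il1rl1, the receptor for interleukin 33, went from 35.7 and 35.9 CPM to 13.8 and 15.5 CPM (−1.29 ± 0.10). Cd55, which protects cells from complement, went from 37.9 and 35.6 CPM to 15.9 and 15.6 CPM (−1.22 ± 0.12).

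The other 7 of these 14 had log2 fold changes between −1.32 and −1.04. Arap3, a GTPase-activating protein for Arf, went from 20.5 and 19.5 CPM to 9.46 and 6.54 CPM (−1.32 ± 0.14), with its 50 nM libraries less alike than its controls. Tmem104 went from 45.6 and 50.4 CPM to 18.9 and 19.6 CPM (−1.32 ± 0.09). The homeobox gene Hoxc4 (−1.16 ± 0.12), the leucine-rich repeat gene Lrrc33 (−1.09 ± 0.07) and Pafah2, which breaks down platelet-activating factor (−1.07 ± 0.11), also fell. Rasa1, which turns off Ras, went from 19.8 and 24.02 CPM to 9.58 and 11.4 CPM (−1.06 ± 0.13), and the membrane scaffold Slc9a3r1 from 105 and 102 CPM to 49.2 and 51.3 CPM (−1.04 ± 0.06).

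Transcription factors of the erythroid program mostly rose: 13 of 17 were higher and 1 lower, with a median of 0.56. Hipk2, a kinase that acts on transcription factors, went from 15.5 and 14.4 CPM to 39.4 and 39.6 CPM (1.40 ± 0.09). Klf1, the main activator of adult beta globin, went from 227 and 214 CPM to 304 and 321 CPM (0.50 ± 0.04). Both 50 nM libraries were above both controls, and the log2 fold change of Klf1 was smaller than that of Beta-s. Mafk, a partner of NFE2, went from 54.03 and 59.6 CPM to 98.2 and 108 CPM (0.86 ± 0.06), and Foxo3 from 43.8 and 51.6 CPM to 78.2 and 80.6 CPM (0.74 ± 0.06). Myb, a progenitor factor, was the member that fell, from 42.8 and 40.4 CPM to 27.9 and 30.2 CPM (−0.52 ± 0.09). By library size alone 2 of the list were lower.

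Progenitor and myeloid factors and receptors went the other way in 7 of 10 tested members, with 2 higher and a median of −0.40. Kit, the receptor for stem cell factor, went from 518 and 522 CPM to 377 and 379 CPM (−0.46 ± 0.03). Myc went from 389 and 394 CPM to 299 and 289 CPM (−0.41 ± 0.04). The integrin chain Itga4 went from 122 and 116 CPM to 83.3 and 75.7 CPM (−0.59 ± 0.06), and the homeobox gene Hhex fell too (−0.42 ± 0.07). The 2 members that rose are the ETS factors Fli1, known in megakaryocytes, and Sfpi1, which encodes PU.1 of myeloid cells. Fli1 went from 0.552 and 0.504 CPM to 1.97 and 1.93 CPM (1.87 ± 0.35), a low level throughout. Sfpi1 went from 4.91 and 3.66 CPM to 5.78 and 7.29 CPM (0.61 ± 0.17), and its call was lost without replicate 2 of 0 nM (adjusted p = 0.119) or of 50 nM (adjusted p = 0.115).

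Signalling from the erythropoietin receptor showed 8 of 14 members higher and 2 lower, with a median of 0.27. Pim1, a survival kinase induced by STAT5, went from 87.8 and 87.6 CPM to 261 and 267 CPM (1.59 ± 0.04). Bcl2l1, which encodes the survival protein BCL-XL, went from 50.3 and 50.6 CPM to 128 and 122 CPM (1.31 ± 0.05). Both stood at more than the 2-fold mark, while the other members did not: Trib3 went from 61.8 and 58.7 CPM to 95.9 and 97.6 CPM (0.68 ± 0.06). Stat5a fell from 93.3 and 92.4 CPM to 71.9 and 72.95 CPM (−0.36 ± 0.06), as did the feedback inhibitor Socs2 (−0.31 ± 0.07). Over the BCL2 family 3 of 11 were higher, Bcl2l1 included, 1 was lower and 7 were not called, with 18.8% higher and 14.7% lower over all genes. The lower member Bid (−0.13 ± 0.05) lost its call without replicate 1 of 0 nM (adjusted p = 0.0563), replicate 2 of 0 nM (0.233) or replicate 2 of 50 nM (0.195).

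Genes that remove organelles and proteins during maturation were more often higher than lower, mostly by less than 2-fold. Of 20 autophagy genes 12 were higher and 1 lower, with a median of 0.25. The cargo receptor Sqstm1 went from 294 and 307 CPM to 393 and 393 CPM (0.38 ± 0.03), and Gabarap, of the ATG8 family, from 128 and 128 CPM to 174 and 165 CPM (0.40 ± 0.04). The lower member was Atg16l1 (−0.19 ± 0.07), not called without replicate 2 of 0 nM (adjusted p = 0.265) or replicate 1 of 50 nM (0.309). Of 13 ubiquitin enzymes linked to erythroid maturation 8 were higher and 2 lower, with a median of 0.37 that ran from 0.22 to 0.53 with a library left out. None was lower without replicate 1 of 0 nM, and 1 was without each other library of the 2 doses or with DESeq2. Ube2l6 went from 37.5 and 38.7 CPM to 128 and 119 CPM (1.70 ± 0.05). The ligase Trim10 went from 70.8 and 69.4 CPM to 151 and 155 CPM (1.13 ± 0.04). Ube2o, which tags unneeded proteins in reticulocytes, went from 16.9 and 18.98 CPM to 35.4 and 34.5 CPM (0.96 ± 0.08).

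Of 13 cyclin-dependent kinase inhibitors and antiproliferative genes 9 rose and 4 did not pass, with a median of 0.49, and 5 rose without replicate 2 of 50 nM. Beside Btg2, Cdkn1a, which encodes p21, went from 114 and 111 CPM to 154 and 161 CPM (0.49 ± 0.04). Cdkn2c went from 7.36 and 7.44 CPM to 11.2 and 12.1 CPM (0.66 ± 0.13), and Mxd1, an antagonist of MYC, from 18.6 and 16.02 CPM to 25.3 and 25.1 CPM (0.54 ± 0.09). In each of these 3 the gap between doses was wider than that between replicates. Among 16 genes of p53 and its targets 8 were higher and 8 did not pass, with Cdkn1a on this list as well. Sesn1 went from 75.1 and 80.5 CPM to 117 and 114 CPM (0.57 ± 0.05) and Trp53inp1 from 18.3 and 20.7 CPM to 32.4 and 36.9 CPM (0.83 ± 0.08).

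Mitotic genes were higher in 19 of 25 members and lower in 1, with a median of 0.27. Nusap1, a spindle protein, went from 90.3 and 82.3 CPM to 137 and 131 CPM (0.63 ± 0.05). Aurka went from 157 and 155 CPM to 222 and 214 CPM (0.48 ± 0.04), and Mki67, the proliferation marker, from 167 and 169.9 CPM to 230.4 and 222 CPM (0.43 ± 0.04). The member that fell was the checkpoint kinase Bub1b (−0.14 ± 0.04), not called without replicate 1 of 0 nM (adjusted p = 0.0768). Of 15 G1 cyclins, kinases and E2F factors 7 rose and 2 fell. The cyclin Ccnd3 went from 316 and 318 CPM to 613 and 629.9 CPM (0.97 ± 0.03), while its relative Ccnd2 fell from 543 and 539 CPM to 441 and 452 CPM (−0.28 ± 0.03) together with Cdk6 (−0.27 ± 0.06). The E2F factors E2f2 (0.78 ± 0.07) and E2f8 (0.55 ± 0.06) rose.

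Of 28 DNA replication genes 11 were higher with TMM, where 18.8% of all genes were, and 1 was lower with a median of 0.08, while by library size alone 5 were higher and 2 lower with a median of 0.01. Without replicate 2 of 0 nM, or without replicate 1 of 50 nM, 7 were higher. Cdc6, which loads the replicative helicase, stood out, from 162 and 165 CPM to 276 and 260.4 CPM (0.71 ± 0.04). The ribonucleotide reductase subunits Rrm2 (0.33 ± 0.03) and Rrm1 (0.31 ± 0.03) rose less, and the polymerase subunit Pold1 fell (−0.20 ± 0.03).

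The MYC network and the factors that assemble ribosomes were lower in 16 of 33 members and not called in 17, with a median of −0.11. Without replicate 1 of 50 nM 2 members were higher, and without replicate 1 of 0 nM 1 was. By library size alone 28 were lower and the median was −0.18. Besides Myc, Heatr1 went from 315 and 317 CPM to 267 and 243 CPM (−0.31 ± 0.04) and Rrp1b from 112 and 111 CPM to 83.8 and 82.6 CPM (−0.42 ± 0.06). Bop1, of the large subunit's assembly, went from 233 and 238 CPM to 194 and 197 CPM (−0.27 ± 0.04). None of the falls named here was as large as 2-fold. Nucleotide and polyamine synthesis was lower in 7 of 20 members and higher in 1, and in 11 lower by library size. Cad, the first enzyme of pyrimidine synthesis, fell (−0.25 ± 0.03), and Azin1, which promotes polyamine synthesis, was the member that rose (0.28 ± 0.04).

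Energy metabolism showed small and mixed changes. Glycolysis had 6 of 20 higher and 5 lower with TMM and 4 higher and 6 lower by library size. Pkm went from 563 and 573 CPM to 442 and 436 CPM (−0.37 ± 0.03) and Ldha from 2355 and 2430.5 CPM to 2039.9 and 2137 CPM (−0.20 ± 0.03). Bpgm, which makes the red cell's 2,3-bisphosphoglycerate, went up from 26.5 and 25.1 CPM to 42.2 and 38.7 CPM (0.65 ± 0.08). The glucose transporter Slc2a3 rose from a very low level, 0.245 and 1.07 CPM, to 4.38 and 3.92 CPM (2.65 ± 0.32). The tricarboxylic acid cycle had 3 of 20 higher and 7 lower with TMM, against none higher and 15 lower by library size, and 3 lower without replicate 2 of 50 nM or 4 without replicate 2 of 0 nM. Oxidative phosphorylation had 9 of 35 higher and 1 lower with a median of 0.05, but 4 higher and 9 lower with a median of −0.02 by library size. So no direction is stated for these 3 lists.

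Amino acid and lipid genes held a few larger changes. Slc6a9, the glycine carrier that feeds heme synthesis, went from 19.01 and 21.4 CPM to 53.8 and 58.4 CPM (1.48 ± 0.07). The folate enzyme Mthfd1 fell from 1129 and 1147 CPM to 874 and 857 CPM (−0.39 ± 0.03), while its mitochondrial relative Mthfd2 rose from 229.9 and 229 CPM to 291 and 284 CPM (0.32 ± 0.04). As a whole that list had 5 of 21 higher and 6 lower, and 3 higher without replicate 1 of 0 nM or replicate 2 of 50 nM. In cholesterol and fatty acid synthesis 11 of 26 were higher and 5 lower. Scd2, a fatty acid desaturase, fell from 546 and 541 CPM to 352 and 324 CPM (−0.68 ± 0.05). Dhcr7, of the last step of cholesterol synthesis, fell from 149.8 and 155 CPM to 102 and 94.9 CPM (−0.63 ± 0.05). The lipid regulator Srebf1 (−0.42 ± 0.06) and Fasn (−0.28 ± 0.04) fell as well, whereas the sterol enzymes Fdft1 (0.42 ± 0.04) and Fdps (0.38 ± 0.04) rose.

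Of 16 genes of the integrated stress response 12 were higher, where 18.8% of all genes tested were, and 1 was lower, with a median of 0.58. Eif2ak1, the kinase HRI that senses heme, went from 104 and 102 CPM to 182 and 177 CPM (0.80 ± 0.04). Ppp1r15a, which reverses the response, went from 34.6 and 28.9 CPM to 70.8 and 71.4 CPM (1.16 ± 0.06). Atf5 (1.245 ± 0.10) and Xbp1 (0.70 ± 0.05) rose too. The member that fell, Herpud1 (−0.18 ± 0.07), was not called without replicate 2 of 0 nM (adjusted p = 0.379) or replicate 1 of 50 nM (0.247).

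Peroxide defence and glutathione genes were higher in 12 of 19 and lower in 1, with a median of 0.27. Prdx2, an abundant peroxidase of red cells, went from 841 and 826 CPM to 1460.3 and 1443 CPM (0.80 ± 0.03). Gpx1 went from 938 and 906 CPM to 1302 and 1229 CPM (0.46 ± 0.03) and catalase, Cat, from 168 and 172 CPM to 239 and 256 CPM (0.54 ± 0.04). The mitochondrial enzyme Sod2 fell from 327 and 337 CPM to 289.8 and 287 CPM (−0.20 ± 0.04). Of 10 immediate early genes tested 5 were higher and 1 lower, and none was lower without replicate 1 of 0 nM. Dusp1, a phosphatase of MAP kinases, went from 5.09 and 6.87 CPM to 25.8 and 24.4 CPM (2.07 ± 0.12), and Klf6 from 6.56 and 7.44 CPM to 14.8 and 14.2 CPM (1.05 ± 0.12).

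**Figure D3:**
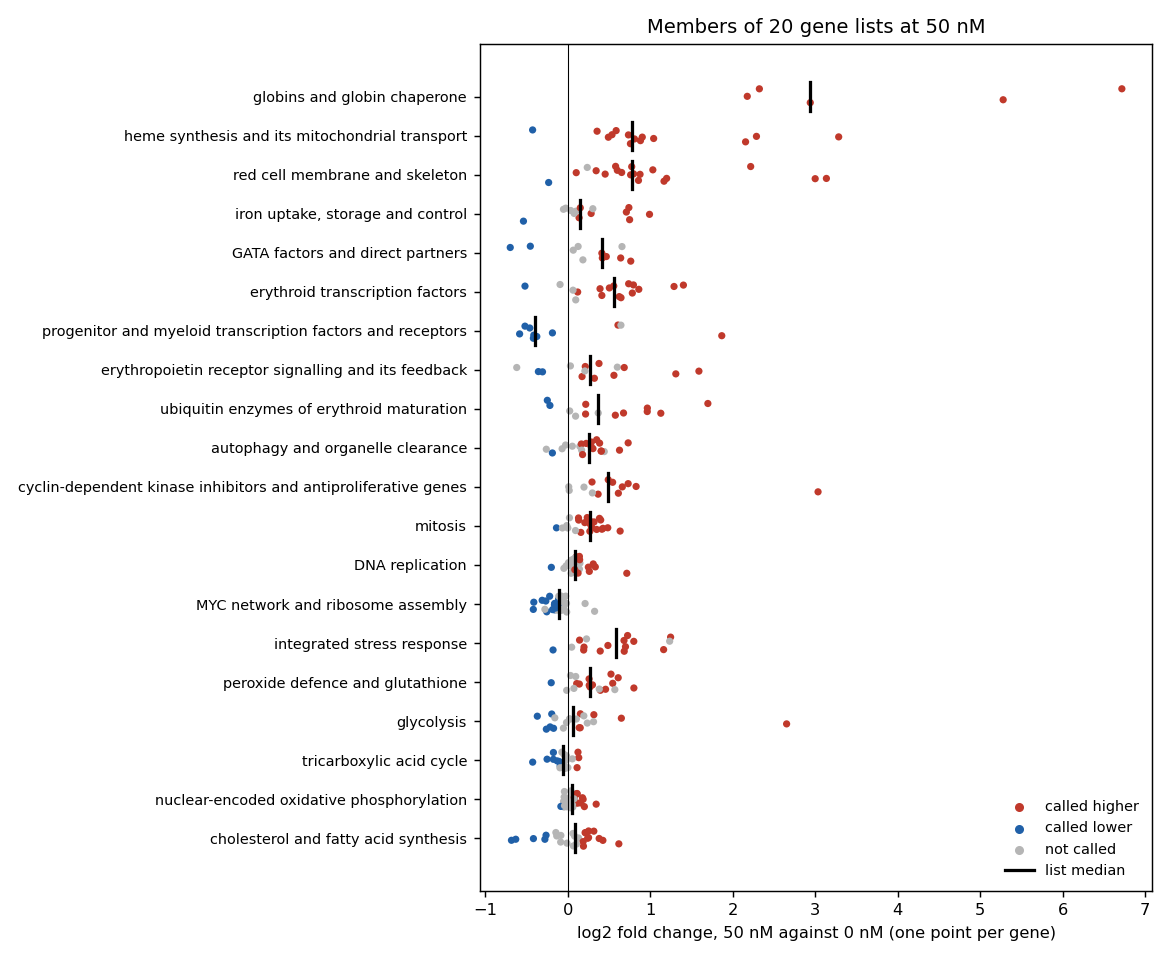
Log2 fold change at 50 nM against 0 nM for the tested members of 20 gene lists, with 1 point per gene, red for raised, blue for lowered, grey for not called, and a black bar at each list's median. The medians run from 2.94 for the globins to −0.40 for progenitor and myeloid factors.

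Markers of the cell type were checked. Of 11 tested erythroid markers 10 were higher and Tal1 was not called (54.8 and 55.9 CPM against 57.4 and 68.2 CPM, adjusted p = 0.343), with a summed level of 2692 and 2597 CPM at 0 nM and 6093 and 6275 CPM at 50 nM. Gata1 is among the raised markers and in this sum, at 755 and 667 CPM at 0 nM and 1063 and 1152 CPM at 50 nM. Whether reads of the fusion are counted under it was not tested. Many markers of other cells had no count. The 15 megakaryocyte markers summed to 42.5 and 40.6 CPM at 0 nM and 67.2 and 67.7 CPM at 50 nM, and 6 of them had no count in these 4 libraries. Of the 8 tested, 3 were higher and 2 lower. Itgb3 went from 8.22 and 7.31 CPM to 34.6 and 37.01 CPM (2.20 ± 0.09) and Gp9 from 1.35 and 1.45 CPM to 4.89 and 4.05 CPM (1.67 ± 0.24). Tubb1 had 3 and 2 counts against 128 and 87, a ratio of 43.5 (95% interval 18.4 to 135, for counting error only). Gp5 fell from 13.4 and 11.2 CPM to 4.51 and 3.86 CPM (−1.56 ± 0.21), as did Nrgn (−0.67 ± 0.16). Itga2b (1.35 and 0.883 CPM against 1.02 and 1.18 CPM) and Pf4 (0.368 and 0.378 CPM against 0.762 and 0.498 CPM), of the same list, stayed low and were not called.

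Mast cell and basophil markers were lower in 3 of 6 tested members, which are Kit, Il1rl1 and Gata2, and their sum was 690 and 682 CPM at 0 nM and 461 and 485 CPM at 50 nM. Kit and Gata2 are progenitor genes too, and the mast cell protease gene Cpa3 stood at 1.66 and 0.757 CPM and 1.02 and 0.934 CPM and was not called. Of the 12, 4 had no count. Granulocyte and macrophage markers summed to 4.35 and 4.1 CPM against 39.0 and 41.5 CPM, of which Csf2rb made nearly all, and 11 of 19 had no count. Lymphocyte markers summed to 2.87 to 5.03 CPM in the 4 libraries, with 9 of 13 at no count, and fibroblast and endothelial markers to 0.123 to 0.315 CPM, with 11 of 12 at no count. The part of any such cells in the results was not tested.

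The place of 50 nM in the series was read from its neighbours, with comparisons that share libraries and so are not independent of each other. Against 25 nM 1424 genes were higher (14.1%) and 1215 lower (12.1%) at 50 nM. From 50 to 75 nM 1672 rose (16.6%) and 1588 fell (15.8%), and from 50 to 200 nM 3926 rose (38.9%) and 3767 fell (37.4%). Many leading genes thus stood at 50 nM far below their later level. Slc4a1 was at 97.9 ± 4.06 CPM at 25 nM and 6685 ± 59.6 CPM at 200 nM (SD, n = 2), with a log2 fold change of 2.76 from 25 to 50 nM and 3.33 from 50 to 200 nM. Alas2 rose by a further 3.75 on the log2 scale from 50 nM, to 4321 ± 48.8 CPM at 200 nM. Hbb-bh1 rose by 6.45 to 1932 ± 19.8 CPM, and Hba-x by 6.84 to 105 ± 0.809 CPM. Hbb-y, at a few counts at 50 nM, reached 140.0 ± 1.05 CPM at 200 nM.

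Falls continued likewise in part of the genes. Car1 was at 412 ± 9.18 CPM at 75 nM and 28.7 ± 3.14 CPM at 200 nM, −5.11 on the log2 scale from its level at 50 nM. Slc30a2, a zinc transporter, fell from 40.8 and 38.97 CPM at 0 nM to 23.8 and 28.5 CPM at 50 nM (−0.61 ± 0.09) and to 0.800 ± 0.172 CPM at 200 nM. The retroviral gene Erv3 fell from 96.5 and 99.9 CPM to 60.1 and 62.7 CPM (−0.68 ± 0.07) and to 1.63 ± 0.216 CPM at 200 nM. Both lost most of their level above 50 nM. Lgals9 had most of its fall behind it, with 30.99 ± 2.28 CPM at 75 nM and 25.00 ± 0.954 CPM at 200 nM. Tmem104 and Rasa1 did not pass the test between 50 and 200 nM, at −0.21 (adjusted p = 0.0745) and 0.23 (adjusted p = 0.135). The iron reductase Steap3 and Cdc6 had risen at 50 nM and did not pass between 50 and 200 nM (0.03, adjusted p = 0.443, and 0.06, adjusted p = 0.151).

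A small number of genes had a level at 50 nM outside both ends of the dose range, called by the larger of the p-values against 0 and against 200 nM. There were 115 genes (1.14%) higher and 76 (0.754%) lower than at both ends. The number lower was 38 with DESeq2, 42 when only the doses compared were fitted and 27 (without replicate 1 of 0 nM) to 64 with a library left out. The number higher was 62 (without replicate 2 of 0 nM) to 104 with a library left out. Ubac1, of a ubiquitin ligase, stood at 51.8 and 49.1 CPM at 0 nM, 84.1 and 74.5 CPM at 50 nM and 43.9 ± 3.91 CPM at 200 nM. Eif5a2, a translation factor, stood at 59.7 and 61.9 CPM, 86.9 and 101 CPM and 43.9 ± 6.78 CPM. Usp6nl, which acts on Rab proteins, stood at 31.2 and 29.8 CPM, 44.7 and 45.2 CPM and 28.8 ± 4.33 CPM.

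The dips were deeper than the peaks among the named genes. Slc7a8, an amino acid carrier, went from 167 and 159 CPM to 77.5 and 84.4 CPM (−1.01 ± 0.05) and back to 208 ± 10.3 CPM at 200 nM. Cd55 returned to 35.03 ± 2.32 CPM, near its level without beta-estradiol. Plxnc1, a semaphorin receptor, went from 31.3 and 35.1 CPM to 17.7 and 17.3 CPM (−0.92 ± 0.10) and to 56.7 ± 1.64 CPM at 200 nM. Ces2g stood at 8.92 ± 0.913 CPM at 75 nM and rose by 0.85 from 50 to 200 nM, to 24.4 ± 3.69 CPM, still under its control level. The lysosomal membrane gene Lamp1 and the ubiquitin ligase Rnf187 showed the limit of the comparison: their replicates at 50 nM lay at 98.2 and 146 CPM and 52.04 and 134 CPM, against 93.9 and 70.9 CPM and 54.3 and 38.2 CPM at 0 nM. Neither passed the test (adjusted p = 0.173 and 0.149), and Rnf187 passed without replicate 1 of 50 nM (adjusted p = 0.0217).

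**Figure D4:**
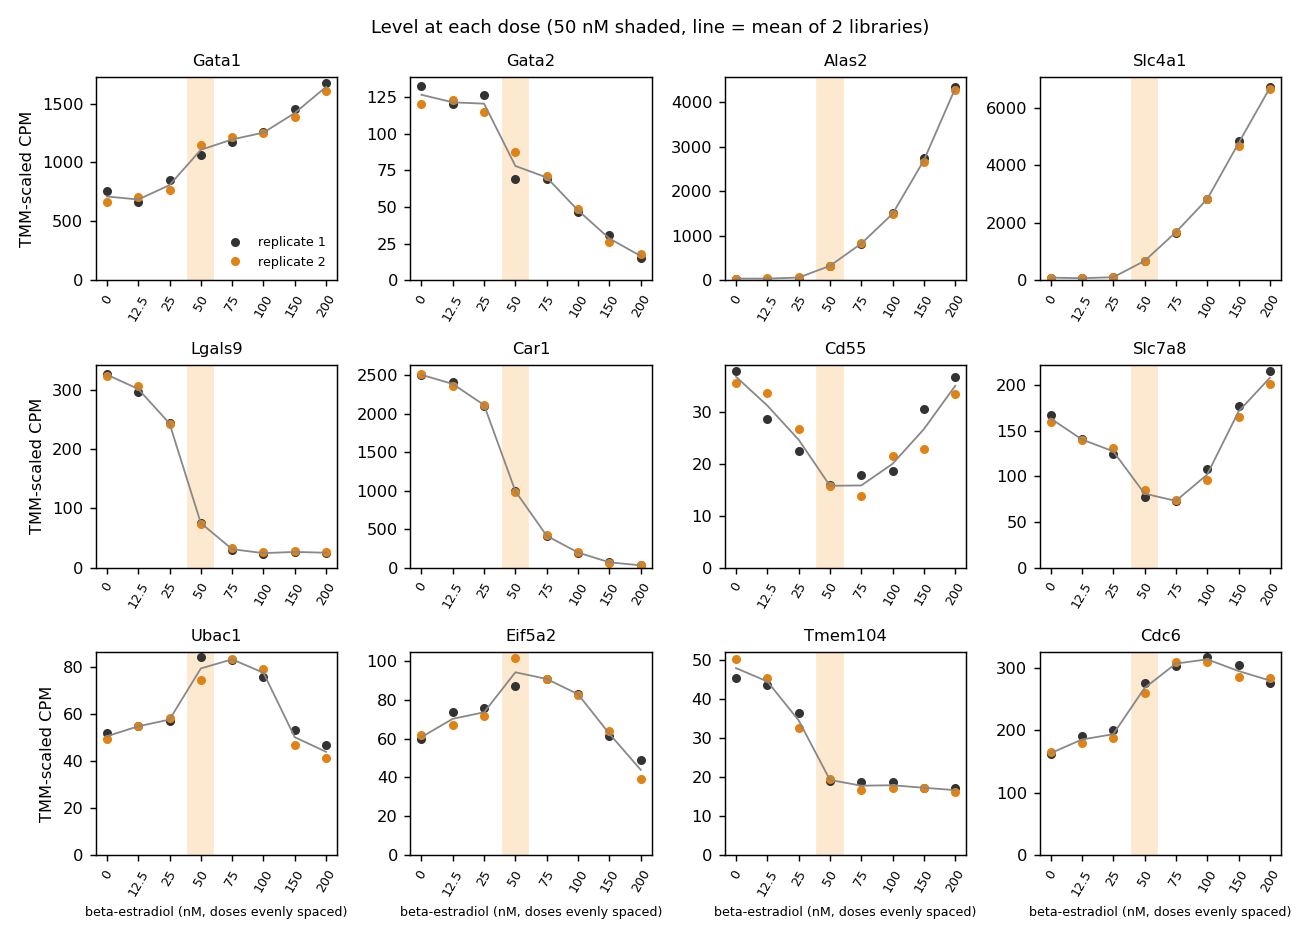
TMM-scaled CPM of 12 genes at each of the 8 doses, with 1 point per library, the line at the mean and 50 nM shaded. Slc4a1 and Alas2 keep rising after 50 nM, Car1 keeps falling, Cd55 and Slc7a8 dip, and Ubac1 and Eif5a2 peak near 50 and 75 nM.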

How the data were processed

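The values are raw counts of reads for each gene symbol in 16 libraries, as the authors deposited them: whole numbers whose totals differ. The submitters' processing notes name bcl2fastq, STAR and the build mm10; versions, counting program and annotation: not given in the sources used here. Counters may divide or discard reads of near-identical genes, and without strand, overlapping genes cannot be told apart.

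The filterByExpr function, grouping by dose, kept 10080 of 23410 genes. Counts were scaled by TMM and fitted in R 4.3.3 with edgeR 4.0.16 (robust quasi-likelihood, dose as a factor, all 16 libraries). P-values were adjusted by Benjamini-Hochberg per contrast, with a threshold of 0.05. The error after ± of a log2 fold change is its size over the root of F. The labels do not say whether equal replicate numbers mark a shared source. The differences between replicate 1 and replicate 2 at 0 and at 50 nM had a correlation of −0.01 across genes. Over all pairs of doses it ran from −0.06 to 0.10. A low correlation of such differences cannot settle the question, since they also hold the noise of each library. Within each dose the 2 libraries differed by more than sampling noise.

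Named genes are the 14 most raised and 14 most lowered called genes whose larger mean was 20 CPM or more and whose library pairings all had 1 direction, 3 of each kind for the other contrasts, Gata1, Gata2, the 4 members of a list with the smallest adjusted p and up to 2 called members that moved against their list. One of them is not reported here. Of the 693 entries in 38 lists 687 matched a symbol, 3 by an older one. Positions are from GENCODE M21 on GRCm38. The comparison, lists and rules were chosen with earlier results of these data known. Alternatives were RLE and library-size scaling, DESeq2 1.42.0, other filters, only the doses compared, a replicate block, leaving out Rn45s and globins, and each library left out.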

Additional observations from a re-analysis of the deposited data

How the results depend on the processing

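For 50 nM against 0 nM no alternative called a gene in the opposite direction. The count of raised genes lay between 1336 (library size alone) and 1923 (no filter), and that of lowered genes between 1018 (DESeq2) and 1533 (Rn45s and globins left out), except for 2330 by library size alone. Leaving out a library gave 1469 to 1675 raised and 1012 to 1190 lowered genes; the library left alone in its dose is then assumed to vary like the other doses. Dips at 50 nM numbered 76, against 38 with DESeq2, 42 with only the doses compared and 27 to 64 with a library left out, and peaks 115 against 62 to 104 with a library left out. With the replicate number as a block 1883 genes rose and 1454 fell, and no count of genes moved by over 1.5 times. With 2 libraries a dose, the fit leans on the spread shared over all doses. Of the 187 named genes called, 28 lost their call under at least 1 alternative, 25 of them without at least 1 library. With DESeq2 the lost calls included those of Alas1 (adjusted p = 0.129), Atg16l1 (0.106), Bid (0.0808), Cyc1 (0.082), Herpud1 (0.114), Mif (0.0795) and Tspo2 (0.0588), each the lowered member of its list. Raised genes also lost their calls with DESeq2, among them Hbb-y (0.0891), Ogdh (0.0657) and Slc1a4 (0.0555). Levels under about 1 CPM rest on fewer than 20 counts, so their fold changes are the least certain.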

Other observations

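The nuclear long noncoding RNAs, not described above, were lower in 5 of 10 tested members and higher in 1 at 50 nM, with 2 lower without replicate 1 of 0 nM, replicate 1 of 50 nM or replicate 2 of 50 nM, or with DESeq2. Kcnq1ot1 stood at 56.7 and 63.4 CPM at 0 nM and 33.1 and 37.3 CPM at 50 nM (−0.77 ± 0.08), and Malat1, a nuclear RNA of splicing speckles, at 115 and 115 CPM and 154 and 156 CPM (0.43 ± 0.04). Kcnq1ot1 had already reached 32.5 ± 0.155 CPM at 25 nM and stood at 61.7 ± 3.71 CPM at 75 nM (SD, n = 2), so its fall was not kept at the next dose.

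Among replacement histones and lamina genes 8 of 14 rose and 1 fell. Sun2, of the nuclear envelope, went from 8.28 and 6.62 CPM to 16.5 and 14.5 CPM (1.05 ± 0.13), and H2afy, which encodes macroH2A1, fell from 88.3 and 85.6 CPM to 61.7 and 59.4 CPM (−0.52 ± 0.06). H3f3b (0.30 ± 0.03) and Lmna (0.29 ± 0.03) rose less. Chromatin silencing enzymes were called in 3 of 15 members, where 33.5% of all genes were: Hdac5 rose from 10.5 and 14.2 CPM to 17.96 and 19.6 CPM (0.61 ± 0.12), while Eed (−0.27 ± 0.06) and Dnmt3b (−0.23 ± 0.07) were lower, and only 1 was lower without replicate 1 or without replicate 2 of 0 nM.

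The list of known targets of the estrogen receptor in other tissues had 3 of 7 tested members higher and 2 lower, with Esr1 itself among the 3. Over all genes 18.8% were higher and 14.7% lower. Ctsd, a lysosomal protease, went from 318 and 332 CPM to 475 and 503 CPM (0.59 ± 0.03), and the retinoic acid receptor gene Rara fell from 8.40 and 7.44 CPM to 4.63 and 3.55 CPM (−0.95 ± 0.19). Esr1 went from 82.9 and 68.98 CPM to 117 and 131 CPM (0.71 ± 0.07), a symbol under which reads of the fusion may also be counted, which was not tested. Low-oxygen response genes outside glycolysis were higher in 7 of 14 members and lower in 1. Ero1l went from 111 and 109.6 CPM to 150.2 and 154 CPM (0.46 ± 0.05) and P4ha1 from 15.9 and 14.8 CPM to 24.8 and 23.6 CPM (0.65 ± 0.10). The lower member Mif (−0.10 ± 0.04) was not called without replicate 2 of 0 nM (adjusted p = 0.320) or of 50 nM (0.175). Chaperones and heat shock genes were higher in 3 of 17 members and lower in 5 with TMM, with 18.8% and 14.7% over all genes. None was higher and 10 were lower by library size alone. None was higher without replicate 2 of 0 nM or replicate 1 of 50 nM, with 3 lower in each case, and 5 were higher without replicate 2 of 50 nM. Without replicate 1 of 0 nM 2 were lower, and with DESeq2 3 were. No direction is stated for this list. Trap1, of mitochondria, fell from 372 and 393 CPM to 337 and 319 CPM (−0.22 ± 0.04).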
